A study of Mus musculus with 8 samples.

Results

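The expression profiles of dopaminergic neurons of the wild-type substantia nigra pars compacta (SNc) and of the wild-type ventral tegmental area (VTA) were compared gene by gene. For each region 2 arrays were used, labelled SNc WT and VTA WT. Every probeset with 1 gene symbol and a mean signal of at least 60 (5.91 on the log2 scale) in SNc WT or VTA WT was taken, which gave 14307 of the 35512 probesets of the array, for 12932 genes. The rule used levels and no difference between the regions, and it admits a gene that reached the minimum in 1 region alone: 1241 of the 14307 probesets lay under the minimum in SNc WT and 286 in VTA WT. Just inside the limit lay Ccdc187, with group means of 5.64 in SNc WT and 5.91 in VTA WT, and just outside it Cdyl, with 5.906 and 5.78.

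Live EGFP-positive cells were sorted from newborn C57Bl/6 pups aged P1 to P4 that carried a Th-EGFP transgene on 1 allele, so that the Th promoter chose the cells in every group. The wild-type groups were Pitx3+/+;Th-EGFP+/-, and the KO groups, SNc KO and VTA KO, were Pitx3-/-;Th-EGFP+/- and entered the fit for its estimate of spread and a comparison of the same regions. The lateral part of the dissected midbrain was taken as SNc and the medial part as VTA. Stored batches of sorted cells were pooled, RNA was amplified and each of the 4 groups was hybridized to 2 arrays. By the methods, RNA was purified in duplicate from each of the 4 cell preparations, and separate animals behind both arrays of a group are not mentioned. The p-values therefore describe spread between arrays that may be technical alone.

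Midbrain dopaminergic neurons make dopamine from tyrosine through tyrosine hydroxylase and release it in the forebrain. Those of the SNc project mainly to the dorsal striatum and serve the control of movement, and it is they that are lost first in Parkinson disease. Those of the VTA project mainly to the ventral striatum and cortex and serve reward and motivation. Both populations descend from the midbrain floor plate and share most of their transcription factors, while Sox6 and Otx2 are known to mark lateral and medial progeny.

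Array medians of the 8 arrays lay between 6.11 and 6.24, and 55.0% to 58.9% of probesets exceeded the minimum. The 2 arrays of a group correlated at 0.985 over the members in SNc WT and at 0.982 in VTA WT, with a median SD between arrays of 0.0890 and 0.0886 on the log2 scale. The VTA KO arrays stood farther apart, at 0.953 and 0.147. The Pitx3 probeset does not report the genotype, since it was no lower in the arrays labelled KO: it read 7.72 and 7.63 in SNc WT, 8.10 and 7.84 in VTA WT, 7.87 and 7.94 in SNc KO and 8.08 and 7.92 in VTA KO. Defining genes of dopaminergic neurons were well above the minimum on all 4 wild-type arrays, with Th between 10.04 and 10.32 and Slc6a3, the dopamine transporter, between 10.37 and 11.00.

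Most genes had similar signals in both regions, and the largest differences were of genes lower in SNc WT. The difference, given throughout as SNc WT minus VTA WT on the log2 scale, had a median of 0.0253 over the 14307 probesets and lay within 0.5 in 88.6% of them. Its 5th and 95th percentiles were -0.57 and 0.51, and its 1st and 99th were -1.55 and 0.79. Differences above 1 were found for 53 probesets and below -1 for 296. Of these 296, 121 belong to genes on a list of cells with motile cilia and 20 to other lists of glial, vascular, blood, dividing and choroid plexus cells.

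With limma fitted to all 8 arrays and Benjamini-Hochberg adjustment over the 22112 probesets tested, 15 members (15 genes) were higher in SNc WT at an adjusted p under 0.05 and 71 (67 genes) were lower. Over all probesets tested, 0.0814% were called higher and 0.357% lower, and the 86 called members had differences of at least 0.776 in size. At an unadjusted p under 0.05, 1432 members were higher and 1513 lower, against 8.59% and 10.2% of all probesets. At the thresholds of the study, that is 1.5-fold or more at an unadjusted p no higher than 0.05 and above the signal minimum, 365 were higher and 618 lower, against 2.66% and 3.96%. Both SNc WT arrays lay above both VTA WT arrays in 29.5% of all probesets tested and below them in 28.7%. A lack of overlap is therefore common with 2 arrays per group. The plot of difference against level shows the called probesets below 0 spread over a wider range of differences than those above 0.

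All 86 calls keep their direction when 1 wild-type array is left out, though they were chosen for large differences on those arrays. Leaving out a KO array cannot change the difference, since each group has its own mean. Whether a call keeps an adjusted p under 0.05 depends on which array is left out. Without an SNc WT or a VTA WT array limma called 0 or 1 of the 86 (lowest adjusted p 0.0331 to 0.143 for those lower or higher), without an SNc KO array 8 or 12, all of them lower, and without a VTA KO array all 86. With both VTA KO arrays left out, all 86 were called as well. Centring each array on its median moved the median of all differences by 0.110, and with it the share of adjusted calls that were higher in SNc WT went from 18.6% to 30.0% and that at the thresholds of the study from 40.2% to 63.7%.

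**Figure D1:**
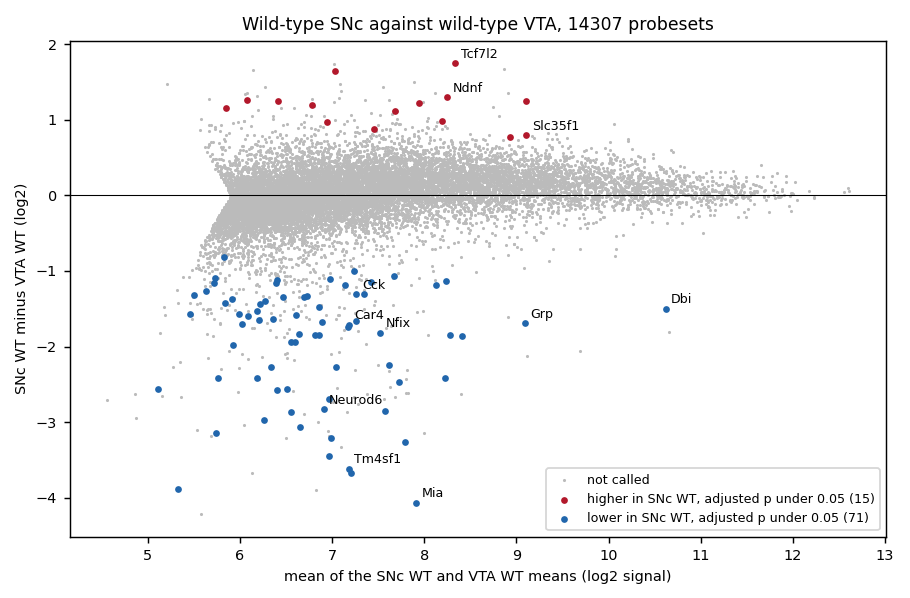
Difference between SNc WT and VTA WT (vertical, log2) of each of the 14307 probesets against the mean of both group means (horizontal, log2 signal). Red points are the 15 probesets higher in SNc WT and blue points the 71 lower, at an adjusted p under 0.05 from limma; the lower ones reach -4.07 (Mia) and the higher ones 1.75 (Tcf7l2).

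Signals of other cell types differ between the sorted pools, and their share in any gene's difference was not tested. Of 135 measured genes of ciliated cells, 25 were lower in SNc WT and 0 higher at an adjusted p under 0.05, with a median of -1.28 against 0.0238 over all member genes. Sums, here and below, are the log2 of the linear sum over all genes of a list on the array, also those under the minimum. For the 152 ciliated genes on the array the sum was 13.31 and 13.30 in SNc WT and 14.96 and 14.70 in VTA WT. Foxj1, the master regulator of motile cilia, read 5.75 and 5.85 in SNc WT and 6.35 and 6.30 in VTA WT. The 10 measured pericyte and smooth muscle genes had a median of -1.17 with 0 called and 6 lower at an unadjusted p under 0.05. The 16 genes of that list on the array had sums of 10.18 and 10.08 in SNc WT against 11.81 and 11.38 in VTA WT. The 20 measured astrocyte and radial glia genes had a median of -0.58 with 1 called lower, Mt2. The 26 genes of that list on the array had sums of 12.36 and 12.30 against 13.02 and 12.93. Gfap and Aldh1l1, which define mature astrocytes, were under the minimum on all 4 arrays, as were the macrophage genes Aif1 and C1qa and the endothelial gene Pecam1. Other defining genes were detected. Rgs5, of pericytes, read 8.27 and 7.83 in SNc WT and 10.4 and 9.96 in VTA WT. Acta2, of smooth muscle, read 5.42 and 5.15, under the minimum, against 8.398 and 7.35. Smaller gaps in the same direction were seen for Col1a1, of fibroblasts (6.67 and 6.64 against 6.96 and 6.975), and Mog, of oligodendrocytes (5.89 and 6.07 against 6.45 and 6.45). Ttr, of choroid plexus, read 6.51 and 6.74 against 6.783 and 6.798. Cx3cr1, of microglia, lay between 6.72 and 7.03 on the 4 arrays without a gap between the regions. Cldn5, of endothelial cells, was above the minimum in VTA WT alone (6.17 and 6.18), and Aqp4, of astrocytes, on 1 VTA WT array (6.34). The 17 genes of general neurons had a median of 0.18, with 6 higher and 0 lower at an unadjusted p under 0.05 and sums of 14.64 and 14.66 in SNc WT against 14.48 and 14.44 in VTA WT. In these sorted pools, fewer cells of a type and less RNA per cell cannot be told apart.

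Lists of neurons that lie next to the midbrain were read too. For every list, counts at an unadjusted p under 0.05 stand beside 8.59% higher and 10.2% lower among all probesets tested. Of 16 measured thalamic and pretectal genes 1 was called higher, Tcf7l2, and 4 were higher and 5 lower at an unadjusted p under 0.05. The 24 genes of that list on the array had sums of 11.37 and 11.46 in SNc WT and 11.33 and 11.35 in VTA WT. Prox1, a homeobox factor of that list, read 6.40 and 7.29 against 5.58 and 5.48 (difference 1.31, adjusted p = 0.124 from limma). Of 24 measured hypothalamic and prethalamic genes 0 were called and 4 were higher and 4 lower at an unadjusted p. The 36 genes of that list on the array had sums of 11.85 and 11.88 against 11.56 and 11.51. The part of such neurons in the differences of Tcf7l2 and of Isl1, Pax6 and Sst, which are on the second list and are described further on, was not tested.

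Of the 15 genes higher in SNc WT, 14 lie outside the lists of non-neuronal cells and 3 were under the signal minimum in VTA WT. The first group among them acts in transcription and signalling. Tcf7l2, the transcription factor at the end of the canonical Wnt pathway, read 9.15 and 9.27 in SNc WT and 7.55 and 7.38 in VTA WT. The regions did not overlap, and the difference of 1.75 (standard error 0.16, adjusted p = 0.0165 from limma) is the largest called in this direction. Vav3, a guanine nucleotide exchange factor, read 7.38 and 7.37 against 6.16 and 6.20 in VTA WT, with a difference of 1.20 (standard error 0.11, adjusted p = 0.0165). Pde4d, a phosphodiesterase that breaks down cyclic AMP, read 8.16 and 8.32 against 7.21 and 7.03, a difference of 1.12 (adjusted p = 0.0435). Its other member probesets gave 0.33 and 0.60 and were not called, so the size of the Pde4d difference depends on the probeset. Psd3, an exchange factor for the small GTPase ARF6, read 8.73 and 8.65 against 7.65 and 7.75 and differed by 0.99 (adjusted p = 0.0286), with 0.47 on its other probeset. Frmd4b, a scaffold with a FERM domain, read 8.46 and 8.66 against 7.22 and 7.45 and differed by 1.23 (adjusted p = 0.02).

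Secreted factors made up a second group. Ndnf, a secreted neurotrophic factor, read 8.84 and 8.96 in SNc WT and 7.47 and 7.72 in VTA WT, a difference of 1.30 (standard error 0.13, adjusted p = 0.0168 from limma). Adamts6, a secreted metalloprotease, read 6.47 and 6.37 against 5.34 and 5.20, both VTA WT arrays being under the minimum, and differed by 1.16 (adjusted p = 0.0318). Signals under the minimum are near the background of the array, so that the size of the Adamts6 difference is uncertain.

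The remaining called genes are of mixed function. Tmem167, a small Golgi protein, differed by 1.65 (7.74 and 7.98 against 6.44 and 5.99, adjusted p = 0.0481), while its other probeset differed by 0.42 and was not called. Lix1 differed by 1.25 (9.70 and 9.76 against 8.39 and 8.57) and Ldoc1, a gene derived from a retrotransposon, by 1.25 (7.09 and 6.98 against 5.73 and 5.85, under the minimum in VTA WT). Cpne5, a calcium-dependent phospholipid-binding copine, differed by 0.98, Ppp1r13b, a regulator of p53-driven apoptosis, by 0.88, Slc35f1, a putative transporter, by 0.80 and Gsdme, a pore-forming gasdermin, by 0.78. The adjusted p of these 6 genes beside Tmem167 lay between 0.0165 and 0.0435 from limma. Gsdme has a second member probeset with a difference of 0.02. The 15th gene is Mrc1, the macrophage mannose receptor, at 6.59 and 6.81 in SNc WT and 5.41 and 5.48 in VTA WT, a difference of 1.26 (adjusted p = 0.0263). Of 8 measured microglia and macrophage genes it alone was called, and 3 were higher and 0 lower at an unadjusted p under 0.05. The summed signal of the 19 genes of that list on the array was 10.36 on both arrays of SNc WT and 10.08 and 10.32 on those of VTA WT.

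**Figure D2:**
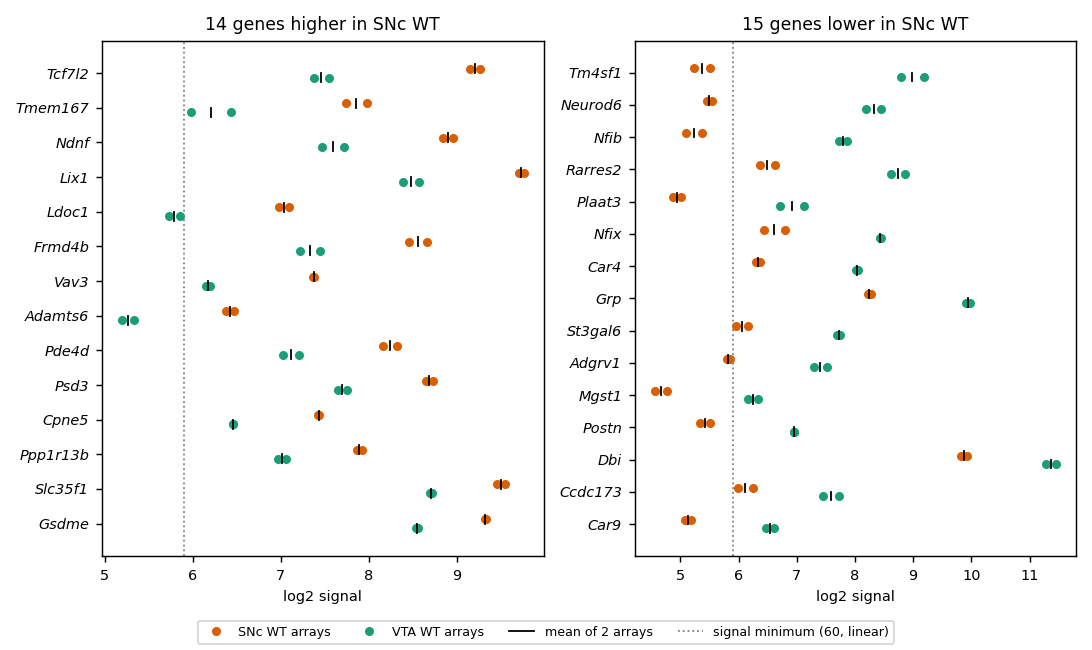
Log2 signal on each SNc WT array (orange) and VTA WT array (green) of 14 called genes higher and the 15 with the largest called differences lower in SNc WT, outside the lists of non-neuronal cells. Black ticks are the means of 2 arrays and the dotted line is the signal minimum of 60. The 29 genes were chosen for called differences on these arrays, so the gap between the regions follows from the choice.

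Among the 71 probesets called lower in SNc WT, 31 belong to the ciliated list, 2 (Otx2 and Mt2) to other lists of non-neuronal cells and 3 to unnamed clones, which leaves 35 probesets of 34 genes. The lists are not complete, so these 34 genes may include others of ciliated or other non-neuronal cells, and the part of such cells in them was not tested. In 43 of the 71 the SNc WT mean was under the signal minimum, so that the sizes of these differences are uncertain. Of the ciliated list, Cfap43, a protein of the ciliary axoneme, differed by -3.26, with 4 other probesets between -3.67 and -2.59. Outside the lists, Tm4sf1, a membrane protein of the L6 family, had the largest difference, with 5.51 and 5.24 in SNc WT, under the minimum, and 9.18 and 8.79 in VTA WT (difference -3.61, standard error 0.20, adjusted p = 0.00908 from limma).

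Transcription factors formed one group of the genes called lower. Neurod6, a basic helix-loop-helix factor of excitatory neurons that also marks medial VTA neurons, read 5.54 and 5.45 in SNc WT and 8.20 and 8.45 in VTA WT (difference -2.83, standard error 0.27, adjusted p = 0.0165 from limma). Of the nuclear factor I family, which acts in neuronal and glial differentiation, 3 genes were called on at least 1 probeset. Nfib read 5.09 and 5.37 against 7.73 and 7.87 and fell by 2.57 (adjusted p = 0.0332), and by 1.94 on its other called probeset. Nfix read 6.44 and 6.79 against 8.43 and 8.44, a difference of -1.82 (adjusted p = 0.0165). Nfia differed by -1.34 on its called probeset, while the one of higher level, at 6.38 and 5.93 against 8.06 and 8.03, differed by -1.89 and was not called (adjusted p = 0.0815). Otx2, a homeobox factor of the medial midbrain that is also on the choroid plexus list, read 6.25 and 5.62 against 7.76 and 7.79, with the SNc WT arrays well apart, and differed by -1.84 (standard error 0.21, adjusted p = 0.0277). The nuclear factor I genes are also expressed by astrocytes and radial glia, whose summed signal was higher in VTA WT as given above, and the part of those cells in their difference was not tested.

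Peptides, secreted signals and their receptors made up another group. Grp, the gene of gastrin-releasing peptide, had the smallest adjusted p outside cilium genes and Tm4sf1, with 8.22 and 8.27 in SNc WT and 9.91 and 9.97 in VTA WT (difference -1.69, standard error 0.11, adjusted p = 0.00996 from limma). Cck, the gene of cholecystokinin, read 6.76 and 6.47 against 7.87 and 7.96 (difference -1.30, adjusted p = 0.0286). Fst, the activin antagonist follistatin, read 5.88 and 5.80 against 6.97 and 6.95 and Bmp5, a bone morphogenetic protein, 5.21 and 5.16 against 6.23 and 6.32. Both were under the minimum in SNc WT, with differences of -1.12 and -1.09 (adjusted p = 0.0165 and 0.0165). Nrp2, a co-receptor of class 3 semaphorins, read 6.92 and 6.79 against 8.06 and 7.94 (difference -1.15, adjusted p = 0.0165). Cbln4, a secreted synaptic organizer, read 7.81 and 7.54 against 8.73 and 8.88 (difference -1.13, adjusted p = 0.0286). Rarres2, the gene of the chemoattractant chemerin, differed by -2.25, with 6.62 and 6.37 against 8.86 and 8.63 (adjusted p = 0.0165).

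Enzymes, matrix proteins and channels were also called lower. Car4, a membrane-bound carbonic anhydrase, read 6.36 and 6.29 in SNc WT and 8.06 and 8.02 in VTA WT (difference -1.71, adjusted p = 0.0165 from limma), and Car9, another carbonic anhydrase, 5.07 and 5.18 against 6.61 and 6.48 (difference -1.42). Dbi, which binds acyl-CoA and gives rise to a peptide ligand of GABA-A receptors, was the gene of highest signal among the calls, at 9.93 and 9.81 against 11.46 and 11.28 (difference -1.50, adjusted p = 0.0165). Dgkk, a diacylglycerol kinase, differed by -1.18, St3gal6, a sialyltransferase, by -1.67, Plaat3, a phospholipase, by -1.98 and Mgst1, a microsomal glutathione transferase, by -1.57. Postn, a matrix protein, read 5.51 and 5.33 against 6.95 and 6.95 (difference -1.53) and Sulf1, a heparan sulfate endosulfatase, 6.79 and 6.69 against 7.68 and 7.79 (difference -0.996). Adgrv1, an adhesion receptor, differed by -1.58 and Ccdc173, a coiled-coil protein, by -1.47. The metallothionein genes Mt1 and Mt2 differed by -1.31 and -2.69, and Kcnj10, the inward rectifier channel typical of glia, by -1.40, from 7.001 and 6.93 in VTA WT to values under the minimum in SNc WT. All genes of this paragraph were called, with adjusted p between 0.0165 and 0.0319. Mt2 is on the astrocyte and radial glia list, and the part of non-neuronal cells in the differences of this paragraph was not tested.

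Promoters of the called genes were searched for the letters recognised by the families of factors that themselves differed between the regions. The window was the 250 bases before the first listed RefSeq start in GRCm38.p6, found for 12 of the 15 genes higher and 53 of the 67 lower, and both strands were read. The motifs were CTTTGAT for TCF/LEF factors such as Tcf7l2, TTGGC for nuclear factor I, CAGATG for an E-box of the NeuroD type and TAATCC for bicoid-type homeodomains such as Otx2 and Pitx3. They are held by 3.23%, 41.9%, 14.5% and 6.38% of 27025 promoters, and by 2.43%, 44.6%, 10.5% and 5.22% of those of 10327 member genes. Among the genes higher in SNc WT they were found in 0, 4, 0 and 1 of 12, and among those lower in 4, 23, 7 and 4 of 53, which is 7.55%, 43.4%, 13.2% and 7.55%. For the nuclear factor I motif and the E-box, whether the share among the lower genes lies above or below the background depends on which of both backgrounds is used. A pair of genes from each direction that hold 1 match is shown, with the matched letters in capitals: the nuclear factor I motif in Tcf7l2 and Neurod6, the bicoid motif in Vav3 and the E-box in Cck.
Tcf7l2, chr19:55741560-55741809, plus strand: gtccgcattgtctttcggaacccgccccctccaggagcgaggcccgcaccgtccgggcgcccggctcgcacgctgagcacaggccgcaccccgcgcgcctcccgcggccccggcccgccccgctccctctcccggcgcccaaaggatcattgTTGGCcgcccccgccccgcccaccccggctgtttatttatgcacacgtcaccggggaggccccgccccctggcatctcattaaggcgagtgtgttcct
Vav3, chr3:109340433-109340682, plus strand: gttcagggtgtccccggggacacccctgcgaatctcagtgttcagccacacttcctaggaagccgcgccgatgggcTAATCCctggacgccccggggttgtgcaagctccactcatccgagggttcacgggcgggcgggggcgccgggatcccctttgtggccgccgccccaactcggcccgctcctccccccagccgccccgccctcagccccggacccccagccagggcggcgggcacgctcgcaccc
Neurod6, chr6:55681264-55681513, minus strand: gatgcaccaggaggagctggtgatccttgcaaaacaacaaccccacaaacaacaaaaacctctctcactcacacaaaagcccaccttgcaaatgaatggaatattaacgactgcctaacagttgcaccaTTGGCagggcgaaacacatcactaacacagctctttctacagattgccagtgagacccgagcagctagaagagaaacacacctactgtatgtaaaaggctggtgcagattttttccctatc
Cck, chr9:121495695-121495944, minus strand: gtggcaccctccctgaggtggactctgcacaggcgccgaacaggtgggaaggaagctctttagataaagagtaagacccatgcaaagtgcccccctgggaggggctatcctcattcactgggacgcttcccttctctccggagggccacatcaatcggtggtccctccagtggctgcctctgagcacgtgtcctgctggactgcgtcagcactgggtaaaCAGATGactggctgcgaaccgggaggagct
No motif overlaps another in these windows. A match is a description of letters and not of a bound site.

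Among homeobox factors, 88 genes were measured, of which Otx2 was called lower and 0 were called higher. At an unadjusted p under 0.05, 9 were higher and 16 lower, where 8.59% and 10.2% of all probesets were. Those with the largest values above 0 were Pou3f2, a POU factor of neurons, at 9.62 and 9.78 in SNc WT and 8.11 and 7.94 in VTA WT (difference 1.67, adjusted p = 0.066 from limma), and Isl1, a LIM factor of hypothalamic and motor neurons, at 7.86 and 7.78 against 6.49 and 6.19 (difference 1.48, adjusted p = 0.0743). Pou3f2 has a second probeset with a difference of 0.02. Pax6, a paired factor of the diencephalon, read 7.52 and 7.37 against 6.33 and 6.45 (difference 1.05, adjusted p = 0.107) and Pbx3, a cofactor of homeodomain proteins in dopaminergic neurons, 10.33 and 10.30 against 9.74 and 9.70 (difference 0.60, adjusted p = 0.0698). None of these 4 passed the test. Both SNc WT arrays lay above both VTA WT arrays in each of them, as they did in 29.5% of all probesets tested.

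Of 14 measured factors that give midbrain dopaminergic neurons their identity, 1 was called, Otx2, and differences ranged from -1.84 to 0.78. Unadjusted p-values under 0.05 were found for 4 with higher and 2 with lower values, and 3 and 2 met the thresholds of the study. Nr4a2, required for the dopaminergic phenotype, differed by 0.07 (95% interval -0.16 to 0.31), En1 by 0.12 (-0.15 to 0.40), En2 by -0.14, Lmx1b by -0.14, Foxa2 by -0.33, Foxa1 by 0.40, Pitx3 by -0.30 (-0.61 to 0.02) and Bcl11a by -0.07. Sox6, the factor of ventral SNc neurons, read 7.77 and 7.73 in SNc WT and 7.15 and 7.14 in VTA WT, without overlap, and differed by 0.61 (adjusted p = 0.104 from limma). Nr2f2 and Nr2f1, orphan nuclear receptors, differed by 0.78 and 0.11, and Ebf1, a factor of neuronal migration, by -0.81 (adjusted p = 0.138).

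**Figure D3:**
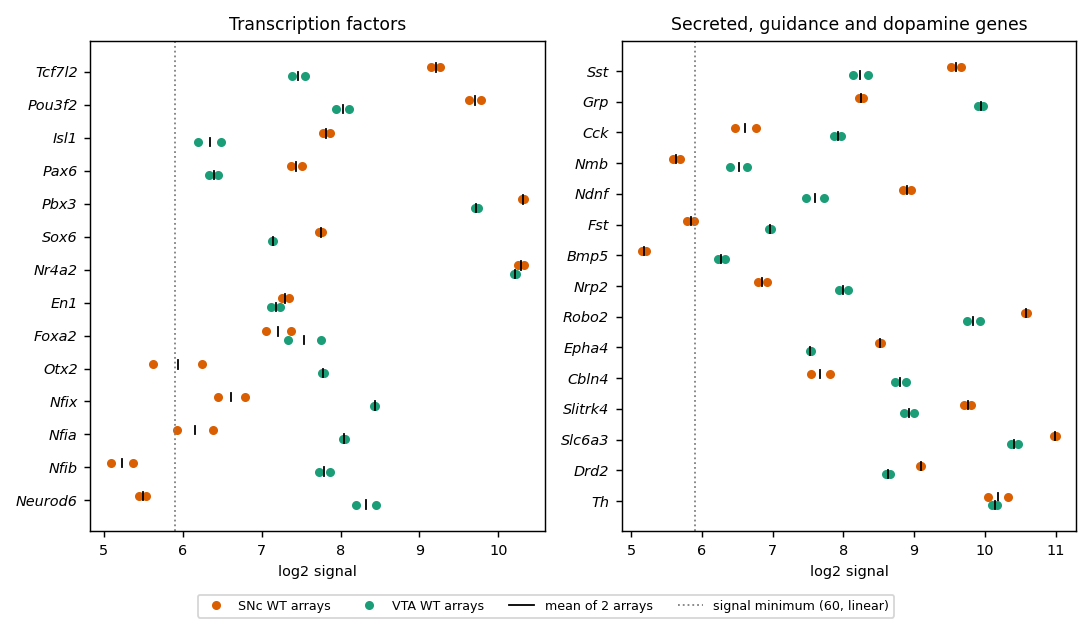
Log2 signal on each SNc WT array (orange) and VTA WT array (green) of transcription factors (left) and of secreted, guidance, synaptic and dopamine genes (right). Black ticks are means of 2 arrays and the dotted line the signal minimum of 60; Nr4a2, En1 and Th have overlapping or adjacent values, while Neurod6, Nfib and Grp lie far apart.

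Dopamine synthesis, storage and uptake genes had a median difference of 0.11, with values from -0.39 to 0.59, and 0 of 15 were called. Th, the rate-limiting enzyme, read 10.32 and 10.04 in SNc WT and 10.17 and 10.10 in VTA WT, with overlap and a difference of 0.04 (95% interval -0.30 to 0.38). Slc18a2, the vesicular monoamine transporter, differed by -0.04 (-0.36 to 0.29). Slc6a3, the plasma membrane dopamine transporter, read 10.98 and 11.000 against 10.46 and 10.37 and differed by 0.58 (adjusted p = 0.117 from limma). Ddc, which decarboxylates L-DOPA, differed by 0.55, Gch1, which starts the synthesis of the cofactor tetrahydrobiopterin, by 0.59, and Drd2, the autoreceptor, by 0.46. These 4 were the genes of the list at an unadjusted p under 0.05, and all 4 were higher in SNc WT (adjusted p 0.107 to 0.196). Gch1, Slc6a3 and Ddc lay above the 95th percentile of all member probesets, 0.51. Gch1 alone met the thresholds of the study, which 2.66% of all probesets tested met with higher values. The other cofactor genes Pts, Spr, Qdpr, Gchfr and Pcbd1 differed by 0.11, 0.03, -0.06, -0.14 and 0.39, Maoa and Maob by 0.15 and -0.18, Slc10a4, a vesicular carrier, by 0.20 and Dnajc12, a chaperone of the aromatic amino acid hydroxylases, by -0.39.

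Genes known to mark either region were read as 2 lists, to which the study added genes seen on these arrays, so that their counts are not independent evidence of direction. Of 19 SNc and ventral SNc genes, 3 were called higher (Ndnf, Lix1 and Vav3) and 0 lower, with a median of 0.58, and 13 had higher and 1 lower values at an unadjusted p. The one that ran the other way was Anxa1, annexin A1, a gene of ventral SNc neurons, at 5.27 and 5.38 against 6.93 and 6.77 (difference -1.52, adjusted p = 0.0639, under the minimum in SNc WT). Aldh1a7, a retinaldehyde dehydrogenase close in sequence to Aldh1a1, whose transcript its probes may also bind, read 7.83 and 7.73 against 6.52 and 6.29 and just missed the threshold (difference 1.38, adjusted p = 0.0504 from limma). Of 22 VTA and dorsal SNc genes, 7 were called lower and 0 higher, with a median of -0.71, and 14 had lower and 3 higher values at an unadjusted p. The 3 were Nts, the gene of neurotensin, at 7.86 and 7.97 against 7.12 and 7.10 (difference 0.80, adjusted p = 0.152), Nrip3 at 0.43 and Cd24a at 0.26.

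Of 43 neuropeptide genes measured, 2 were called lower, Grp and Cck, 0 were called higher, and 14 had lower and 4 higher values at an unadjusted p under 0.05. Their median was -0.23. Sst, the gene of somatostatin, read 9.52 and 9.66 in SNc WT and 8.34 and 8.13 in VTA WT, opposite in direction to Grp (difference 1.35, adjusted p = 0.062 from limma). Nmb, the gene of neuromedin B, read 5.59 and 5.69 against 6.40 and 6.64 (difference -0.88, adjusted p = 0.0504, under the minimum in SNc WT). Of 37 neuropeptide receptor genes 0 were called, with 10 lower and 2 higher at an unadjusted p, among them Tacr3, the neurokinin B receptor, at -0.55 and Npy1r at 0.55. The proteins that process and store peptides were closer, with a median of 0.0728 over 19 genes, 0 called, and 3 higher and 2 lower at an unadjusted p.

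Most cell surface genes of adhesion had values above 0. Protocadherins, homophilic adhesion proteins that give neurons a surface identity, had a median of 0.36 over 28 genes. Both SNc WT arrays lay above both VTA WT arrays in 23 of the 28 and below in 1, where 29.5% and 28.7% of all probesets did so. None was called, while 12 were higher and 0 lower at an unadjusted p under 0.05. Pcdhb17 had the smallest p, with 8.13 and 8.003 in SNc WT and 7.25 and 7.13 in VTA WT (difference 0.88, adjusted p = 0.0862 from limma). Genes of the protocadherin clusters are near copies of each other, so that their probesets may share transcripts and are not independent. Classical cadherins and catenins had a median of 0.17 over 22 genes, with 6 higher and 2 lower at an unadjusted p. Cdh20 differed by 0.68 and Cdh6 by -0.89 (adjusted p = 0.082 and 0.0698). Among 51 contactin, IgLON, teneurin and related genes 0 were called and 14 were higher and 5 lower at an unadjusted p, and Islr2, a leucine-rich repeat protein of growing axons, had one of the largest values in this direction, with 7.71 and 8.06 against 6.28 and 6.02 (difference 1.74, adjusted p = 0.0832).

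Among axon guidance genes, Nrp2 was the call. Robo2 and Robo1, receptors of Slit proteins, differed by 0.74 and 0.57 (adjusted p = 0.059 and 0.0959 from limma), and Dcc, the netrin receptor, by 0.55. Epha4, a receptor of ephrins, read 8.50 and 8.53 in SNc WT and 7.53 and 7.54 in VTA WT (difference 0.99, adjusted p = 0.0639). Efnb2, an ephrin, had a value of -0.63. Of 59 neurexins and synaptic organizers, 1 was called, Cbln4, with 13 higher and 7 lower at an unadjusted p. Slitrk4 read 9.80 and 9.71 against 8.86 and 8.99 (difference 0.83) and C1ql1, a secreted organizer, 6.97 and 6.56 against 8.19 and 8.14 (difference -1.40), with adjusted p of 0.0501 and 0.0519.

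**Figure D4:**
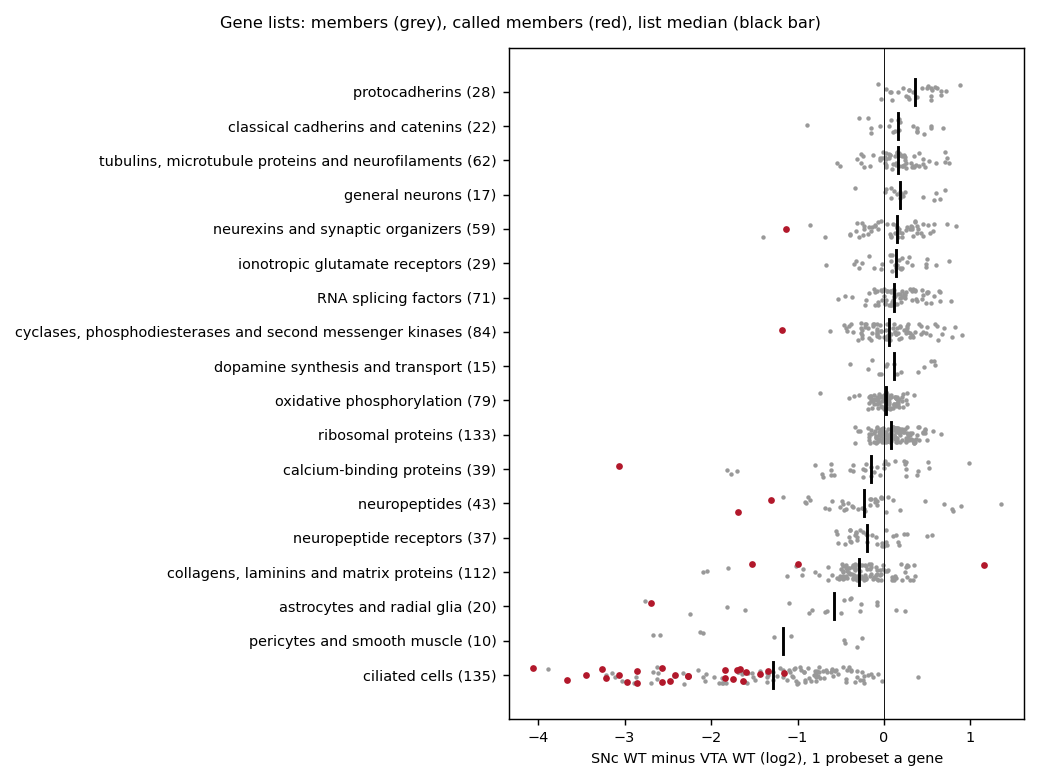
Difference between SNc WT and VTA WT (horizontal, log2) of each measured gene of 18 lists, with 1 probeset a gene. Grey points are members, red points members called at an adjusted p under 0.05 from limma, black bars the list medians, and the number in brackets is that of members; protocadherins have the highest median of those drawn, 0.36, and ciliated cells the lowest, -1.28.

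Among ion channels and transmitter receptors the call was Kcnj10, given above. Of 69 potassium channel genes, 5 were higher and 10 lower at an unadjusted p under 0.05, where 8.59% and 10.2% of all probesets were. Kcnd3, a channel of the A-type current that shapes pacemaking, read 9.08 and 9.17 in SNc WT and 8.55 and 8.44 in VTA WT (difference 0.63, adjusted p = 0.083 from limma), and Kcnk9, a background channel, 8.39 and 8.29 against 9.01 and 9.31 (difference -0.82, adjusted p = 0.083). Of 37 sodium, calcium and HCN channel genes 5 were higher and 2 lower, with Cacna2d2 and Cacna2d3, auxiliary calcium channel subunits, at 0.54 and 0.52. Among 29 ionotropic glutamate receptor genes, Grin2b, Grik3 and Gria3 had values of 0.49, 0.49 and 0.48, and Neto1, an auxiliary subunit, -0.67. Among 15 GABA and glycine receptor genes, Gabra5 had 0.50 and Glra2 -0.59. The nicotinic subunits Chrna4, Chrna3 and Chrnb4 had 0.75, 0.50 and 0.55, and Chrna4 read 10.02 and 9.84 against 9.29 and 9.06 without overlap (adjusted p = 0.0702). The metabotropic receptor gene Grm3 had 1.05 and Grm7 -0.59.

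Genes of intracellular signalling gave 1 call among 84 cyclases, phosphodiesterases and second messenger kinases, Dgkk, on the probeset of highest level of each gene. At an unadjusted p under 0.05, 18 of the 84 were higher and 4 lower, among them Pde4b at 0.70, Camk4, a calcium and calmodulin-dependent kinase, at 0.62 and Prkcq, a protein kinase C, at -0.63. Rgs6, a regulator that ends signalling by Gi/o proteins, read 8.80 and 8.59 in SNc WT and 7.92 and 7.62 in VTA WT, without overlap (difference 0.92, adjusted p = 0.0862 from limma). Gng8, a G protein gamma subunit, had a difference of 1.28 with its VTA WT arrays at 6.19 and 6.67, and Rgs8 one of 0.62. Calcium-binding proteins had a median of -0.15 over 39 genes with 4 higher and 13 lower at an unadjusted p. Calb2, calretinin, differed by -0.71 (adjusted p = 0.107) and Pvalb, parvalbumin, by 0.98 (adjusted p = 0.0504, under the minimum in VTA WT). Of 12 genes of familial Parkinson disease 0 were called, with a median of 0.0894, 1 higher at an unadjusted p and Dnajc6, auxilin, at 0.43.

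Genes of the fast transmitters glutamate and GABA were read in the same way. Slc17a6, the vesicular glutamate transporter VGLUT2, which some VTA neurons use to release glutamate, read 9.06 and 8.78 in SNc WT and 9.68 and 9.90 in VTA WT without overlap (difference -0.87, adjusted p = 0.0747 from limma). Gad1, which makes GABA, read 7.18 and 7.09 against 6.18 and 6.19 (difference 0.95, adjusted p = 0.112). Of 8 measured genes of GABAergic neurons 0 were called (2 higher and 1 lower at an unadjusted p), and of 5 of glutamatergic neurons 1, Neurod6.

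Of 112 genes of collagens, laminins and other matrix proteins, 2 were called lower (Postn and Sulf1) and 1 higher (Adamts6). The median was -0.29. Without adjustment, 45 had p under 0.05 with lower and 5 with higher values. The 11 measured fibroblast and meningeal genes had a median of -0.70. The 19 genes of that list on the array had sums of 10.51 and 10.40 in SNc WT against 11.84 and 11.65 in VTA WT. The part of fibroblasts and meningeal cells in the matrix list was not tested.

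Genes of energy metabolism and translation had few low p-values. The 79 genes of oxidative phosphorylation had a median of 0.0282 with 1 higher and 3 lower at an unadjusted p under 0.05, and the 133 ribosomal protein genes a median of 0.0785 with 1 and 2, with 0 called in both. Tubulins, microtubule proteins and neurofilaments had a median of 0.16 over 62 genes, with 0 called and 16 higher and 1 lower at an unadjusted p, where 8.59% and 10.2% of all probesets were. RNA splicing factors had a median of 0.12 over 71 genes with 0 called and 16 higher and 3 lower. Among them the neuronal splicing factors Rbfox1, Rbfox3 and Celf4 had values of 0.78, 0.58 and 0.64 (adjusted p = 0.0763, 0.103 and 0.0863 from limma). Medians of this size are close to the shift of 0.110 that centring the arrays adds.

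The same regions in Pitx3-/- pups gave a second comparison, on other arrays and other mixtures of cells. By the paper, wild-type SNc pools were mostly Pitx3-positive neurons, and the SNc of newborn Pitx3-/- pups keeps only dorsal Pitx3-negative ones. VTA neurons that would express Pitx3 are still present in the KO at birth. The KO comparison is therefore not a repeat of the wild-type one. Of the 15 members higher in SNc WT, 13 were also higher in SNc KO than in VTA KO and 1, Tcf7l2, was called there. Of the 71 lower, 65 were also lower and 7 were called, where 0.0407% and 0.109% of all probesets were called higher and lower in SNc KO against VTA KO. The medians of these members were 1.20 and -1.70 in the wild type and 0.38 and -0.72 in the KO. The members had been chosen for their size in the wild type, and the cells of the KO pools differ. The part of each in the smaller KO values cannot be told apart. Tcf7l2 read 9.62 and 9.74 in SNc KO and 8.15 and 7.74 in VTA KO, a difference of 1.73 next to 1.75 in the wild type. Over all 14307 members the differences of both genotypes had a Pearson correlation of 0.525 across genes, which are not independent replicates.

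Several genes called in the wild type had KO values of the opposite sign. Postn read 8.58 and 8.79 in SNc KO and 7.51 and 7.67 in VTA KO, a difference of 1.09. Car4 had a KO difference of 0.40, Mgst1 of 0.19 and Adamts6 of -0.32. The difference between the genotypes was itself tested as an interaction, and 0 of 22112 probesets passed at an adjusted p under 0.05 (2186 at an unadjusted one), with Postn at 0.0995, Car4 at 0.145, Mgst1 at 0.145 and Adamts6 at 0.147 from limma. Such p-values do not show that the regions differ alike in both genotypes, since the fit has 4 residual degrees of freedom and the VTA KO arrays vary most.

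**Figure D5:**
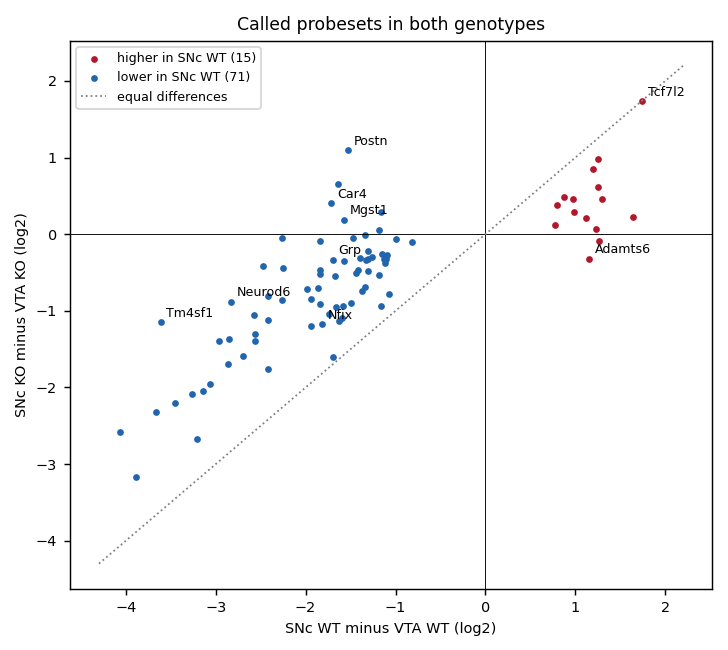
Difference between SNc KO and VTA KO (vertical, log2) against that between SNc WT and VTA WT (horizontal, log2) for the 15 probesets called higher (red) and 71 called lower (blue) in SNc WT. The dotted line marks equal differences; Tcf7l2 lies on it at 1.75 and 1.73, while Postn lies at -1.53 and 1.09.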

How the data were processed

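The deposited values are log2 expression values that the authors obtained with RMA from Affymetrix Mouse Gene 1.0 ST arrays (RMA Express, by the methods), 1 value per probeset and array. The methods also say that raw data were normalized with the LPE (local pooled error) algorithm. The version of RMA Express is not given in the sources used here, nor is a build. Of 35512 probesets, 21789 carry 1 symbol in the platform annotation, 1621 several and 12102 none, and 21698 gene IDs were found in a GRCm38.p6 gene table. No column of another sample was left over.

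In R 4.3.3, limma 3.58.1 was fitted to the 8 arrays together, each group having its own mean (4 residual and 2.4 prior degrees of freedom). Probesets entered the test where any of the 4 groups averaged 60 or more (linear), which gave 22112, and p-values were adjusted over these by Benjamini-Hochberg. Calling was also run on simulated arrays with independent noise and known changes in SNc WT. The outcome is not reported here and is not used as support for the calls. Precision is limited by 2 arrays per group.

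Named genes were the 15 largest called differences in each direction outside lists of non-neuronal cells and clone names, up to 4 genes of smallest p in each of 71 lists (3 for ciliated and choroid plexus cells), and every measured gene of the dopamine and dopaminergic factor lists. Where a gene of a list had several probesets, the one of highest mean was used. The members and lists were chosen with earlier results of these data known, and several lists hold genes the study names from these arrays; symbol patterns that took in unrelated genes were later corrected by name. Defining markers of other cells, genes at the edge of the signal rule and the marker genes Anxa1, Nts, Nrip3 and Cd24a were added with values seen. RefSeq promoter sequences are of GRCm38.p6.

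Alternatives were the 4 wild-type arrays alone, no signal filter, a filter on the wild-type groups, a minimum of 120, median centring, quantile normalization, the replicate number as a block, a variance trend, array weights, LPE used as a test (written from its description with 100 intensity bins) and leaving out each array. Leaving out both VTA KO arrays was added after the data were seen.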

Additional observations from a re-analysis of the deposited data

How the results depend on the processing

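Only median centring, quantile normalization, array weights and leaving out a wild-type array can change a difference between the wild-type groups. Under these, no named gene reversed its direction while called, and the 86 called members kept theirs. The other alternatives change only the spread, the test or the probesets tested (13 of 15 and 59 of 71 members pass a minimum of 120). Adjusted calls numbered 18 higher and 79 lower over all probesets. They were 52 and 192 with the 4 wild-type arrays alone, 10 and 52 with no signal filter, 119 lower with the filter on the wild-type groups only, 32 higher with a minimum of 120, 36 higher with arrays centred on their medians, 322 and 525 with array weights and 340 and 402 with the LPE test. Leaving out 1 array gave 0 to 122 higher and 0 to 314 lower, and leaving out both VTA KO arrays 152 and 344. With 0 called, 1222 to 1672 higher and 1465 to 1540 lower probesets still had an unadjusted p under 0.05. At the thresholds of the study, 589 and 875 probesets became 1098 higher with centred arrays and 499 lower with a minimum of 120.

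Same-numbered arrays did not deviate together (correlations of 0.00577 to 0.0980 over 22112 probesets), and with the replicate number as a block, 12 probesets were called higher and 59 lower, 6 and 43 of them among the 15 and 71 members. Of 70 list medians, 12 changed sign when arrays were centred, none above 0.130 in size, and 11 when 1 wild-type array was left out. The cause of these changes was not tested. Signals near the minimum limit precision: 46 called differences have a region under it.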

Other observations

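Of 144 measured microRNA and small nucleolar RNA genes, 0 were called, with 33 lower and 5 higher in SNc WT at an unadjusted p under 0.05 and a median of -0.22. These probesets lie on hairpins or host transcripts and do not report mature microRNAs. Mir326 had -0.62 and Mir23a -0.67 (adjusted p = 0.083 and 0.0874 from limma). Of 361 zinc finger genes, 0 were called, with 52 higher and 12 lower at an unadjusted p and a median of 0.0909. Zfp521, a zinc finger factor of neural development, read 8.42 and 8.54 in SNc WT and 7.53 and 7.61 in VTA WT (difference 0.91, adjusted p = 0.0763 from limma).

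Of 28 immediate early and stress genes 0 were called, and at an unadjusted p under 0.05 there were 8 lower and 1 higher (median -0.145). Hspb1 and Hspa1a, heat shock proteins, had -0.95 and -0.93 and Fos -0.80 (adjusted p = 0.0624, 0.137 and 0.167 from limma). Slc2a1, the glucose transporter of vessels and choroid plexus, had -2.53 (adjusted p = 0.0612), with 6.34 and 6.39 in SNc WT and 9.08 and 8.71 in VTA WT.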
